A study of Mus musculus with 39 samples.

Results

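Gene expression was compared between a high fat and a low fat diet in the later weeks of feeding. The tissue is labelled epididymal adipose, the visceral fat pad beside the epididymis. The comparison used 8 of the 39 one-colour Agilent arrays of the series. The HFC and LFC arrays of weeks 6, 9, 15 and 18 were taken, 4 arrays per diet, as 4 pairs that each share a time point. All mice were of the strain C57BL/6J and received their diet from weaning. LFC is the low fat control diet with 10% of calories from fat, and HFC is the diet with raised sucrose and 60% of calories from fat, so the groups differed in sucrose as well as in fat. Neither group received KAL-1, the ethno-botanical formulation given with HFC on 18 other arrays. The HFC and LFC arrays of weeks 3 and 12 were left out by rule, because the LFC week 3 array had 97.1% and the HFC week 12 array 94.5% of its probes well above background, against 61.0% to 77.2% on the 8 arrays used here. Biological replicates are mentioned in the series record, but a diet has a single array at each time point, so the 4 weeks of a diet stand as its replicates. The main test takes week as a block, so its p-value measures how the difference between the diets varied over the 4 pairs. Whether the RNA on an array came from 1 mouse or from several is not given in the labels.

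White adipocytes store triglyceride, which they build either from fatty acids delivered by the blood or from fatty acids made within the cell from glucose and fructose, a route called de novo lipogenesis. The genes of this route are known to be switched by the transcription factors SREBP-1c, encoded by Srebf1, and ChREBP, encoded by Mlxipl, which respond to insulin and to sugar. Visceral fat also holds macrophages, neutrophils, lymphocytes, antibody-secreting plasma cells, endothelium and fibroblast-like progenitors, so RNA of the whole pad mixes the RNA of all of these. In such bulk RNA, fewer cells of a type and less RNA per cell cannot be told apart.

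Each value below is a normalised log2 signal, that is the log2 of an array's background-subtracted signal for a probe minus the 75th percentile of that array, and each difference is HFC minus LFC on that log2 scale. Values are given in the order of weeks 6, 9, 15 and 18. All 7 adipose tissue markers, among them Adipoq, Plin1 and Fabp4, were well above background on all 8 arrays. Other tissues were not even across the arrays. The 10 tested epididymis markers of 22 had a median of 1.24 on the LFC week 9 array and of -5.76 to -4.73 on the other LFC arrays, and their summed linear signal ranged from 0.221 to 39.6 on LFC and from 0.592 to 12.4 on HFC. At week 6 the visceral depot markers had medians of -4.40 on LFC and -5.10 on HFC, against -1.58 to 0.21 on the other 6 arrays, so both arrays of that pair stood apart in the same way. Subcutaneous depot markers (3 tested of 6) were highest on that pair, at -3.00 on LFC and -2.74 on HFC, and mesothelium markers lowest, at -4.20 and -4.19. Skeletal muscle markers (-0.60 and 0.67) and nerve markers (0.93 and 1.40) were highest there too. By their medians the depot markers of the week 6 pair thus go against the labelled depot, and which tissue these arrays hold was not tested. Mesothelium markers at week 18 had medians of -3.66 on LFC and -0.64 on HFC. Their part in the results was not tested, and the results that lead the text are given with each week left out.

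**Figure D1:**
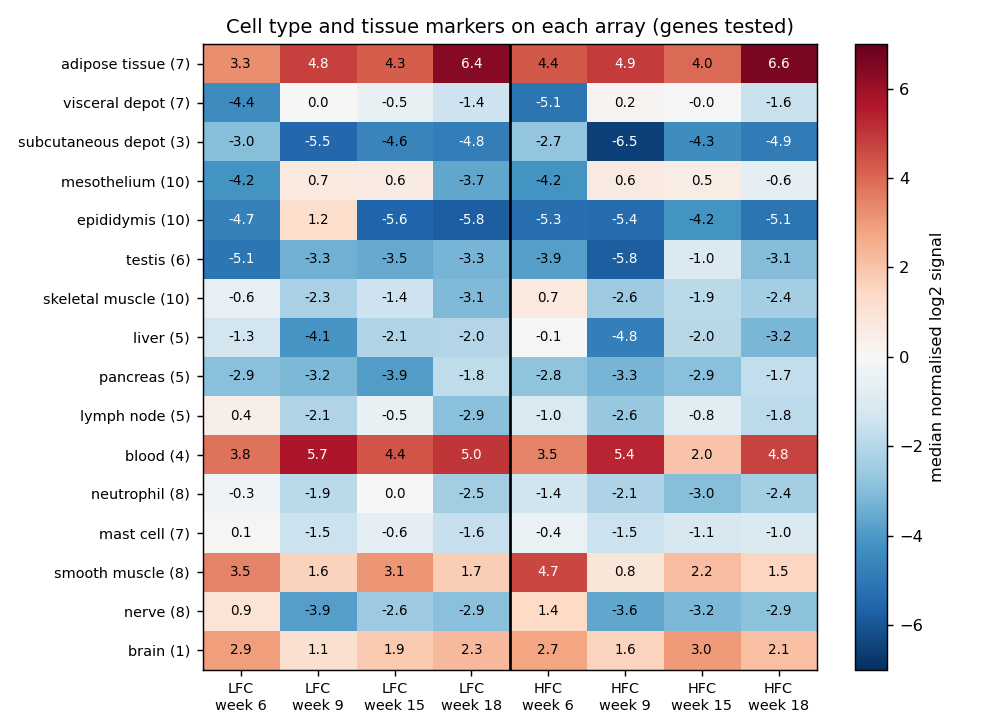
Median normalised log2 signal (colour and number) of each marker list (rows, with the number of genes tested) on each of the 8 arrays (columns, LFC left and HFC right of the line, 1 array each). The adipose tissue markers lie between 3.26 and 6.57 on every array, while the epididymis markers stand at 1.24 on the LFC week 9 array.

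Over the 27866 probes well above background on at least 4 of the 8 arrays, limma with week as a block passed 0 probes at an adjusted p of 0.05, and the smallest adjusted p was 0.769. At an unadjusted p under 0.05 there were 1112 probes, 3.99% of those tested, of which 651 were higher and 461 lower on HFC. That share is below the 0.05 that probes without any difference would give on average. The methods' t-test of 4 against 4 values passed 1 probe, that of the predicted gene Gm13882, at an adjusted p of 0.0234 and with 534 probes at an unadjusted p under 0.05. Its LFC levels were 5.41, 5.46, 5.41 and 5.42 and its HFC levels 5.10, 5.11, 5.11 and 5.15, a difference of -0.31. A paired test without moderation of the variance passed 0 probes, with 1172 at an unadjusted p under 0.05. The median standard error of a difference was 0.27, and an exact sign-flip test of 4 pairs cannot give a two-sided p below 0.125. No gene below therefore passed limma after adjustment over all probes, and the differences are given as measured sizes with their error.

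The genes of de novo lipogenesis were lower on HFC as a group. Of 18 listed genes 15 were tested (Acacb, Elovl3 and Pklr were too dim), and 12 of the 15 had a lower mean on HFC, as did 9010 of 19901 gene names tested. In 9 of the 15 HFC was lower in all 4 pairs, against 5.25% of all gene names tested at 1 probe each (5.67% were higher in all 4), and 9 were lower at an unadjusted p under 0.05, against 1.72% of gene names (2.33% were higher, 4.05% in all). The list's median difference was -0.83, while the median over all probes was 0.02. By pair the list's median was -0.97, -0.58, -0.57 and -0.52. With weeks 6, 9, 15 and 18 left out in turn, 10, 9, 9 and 11 of the 15 were lower in every remaining pair, where all probes gave 10.1%, 10.7%, 13.2% and 9.74%. The list's median without week 6 was -0.61.

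Fatty acid synthase, encoded by Fasn, builds palmitate from acetyl and malonyl units and was measured by a pair of probes. The dimmer Fasn probe read 0.23, 0.44, -0.66 and 2.80 on LFC and -1.74, -1.40, -2.45 and 1.82 on HFC. HFC was below LFC in each pair, and the groups overlapped because both week 18 arrays stood above the rest. The difference was -1.64 (SE 0.25, n = 4 pairs, limma adjusted p 0.792), 3.12-fold lower on HFC. The brighter Fasn probe read 6.37, 6.35, 5.44 and 6.42 on LFC and 4.59, 4.93, 3.86 and 6.82 on HFC, a difference of -1.10 (SE 0.40). At week 18 that probe was saturated on both arrays and HFC read 0.41 higher.

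The stretch before the Fasn start site and that of Thrsp are shown because both genes, Fasn on its dimmer probe, were lower in every pair and both stretches hold the CCAAT box, the site of the factor NF-Y. They are the 250 bases upstream of the annotated start on the minus strand (RefSeq, GRCm38.p6), at chr11:120824548-120824797 for Fasn and chr7:97417551-97417800 for Thrsp, written 5′ to 3′ with CCAAT on either strand in capitals.
Fasn: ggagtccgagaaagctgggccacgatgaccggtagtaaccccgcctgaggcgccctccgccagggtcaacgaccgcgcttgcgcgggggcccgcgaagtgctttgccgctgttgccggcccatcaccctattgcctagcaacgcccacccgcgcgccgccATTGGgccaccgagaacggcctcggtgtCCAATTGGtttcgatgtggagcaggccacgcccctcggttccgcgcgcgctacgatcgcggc
Thrsp: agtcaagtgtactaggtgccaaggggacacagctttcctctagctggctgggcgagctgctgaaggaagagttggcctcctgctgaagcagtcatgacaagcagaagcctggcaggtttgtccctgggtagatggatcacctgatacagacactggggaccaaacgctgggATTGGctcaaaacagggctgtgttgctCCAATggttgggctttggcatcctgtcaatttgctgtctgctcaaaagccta
Promoters were at hand for 14 of the 18 listed genes, with 19 start sites. CCAAT on either strand was in 10 of the 19 (52.6%), against 33.8% of 32851 promoter stretches of the same length. The E-box CACGTG, which reads the same on both strands, was in 3 of the 19 (15.8%, against 6.02%), and the sterol response element-like TCACNCCAC, searched on both strands, in 1 (5.26%, against 1.05%). A match is a description of the letters only.

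The enzymes around Fasn differed in the same direction. Acetyl-CoA carboxylase 1, encoded by Acaca, which makes malonyl-CoA, differed by -0.97 (SE 0.25) on its brightest probe, while its other probes, both dim, differed by -0.14 and 0.12. Acss2, which makes acetyl-CoA from acetate, was outside the list and among the genes with the smallest p. Acss2 read 0.36, 0.30, -0.45 and 2.22 on LFC and -1.18, -0.84, -1.28 and 0.90 on HFC. HFC was lower in every pair, by 1.21 on average (SE 0.22, limma adjusted p 0.80), and its other probe differed by -1.19. Me1, the malic enzyme that supplies NADPH, differed by -0.87 (SE 0.21) and by -0.98 on its other probe, each lower in 4 of 4 pairs. The citrate carrier Slc25a1 differed by -0.79 and Aacs, an acetoacetate-activating enzyme, by -0.74, both lower in 4 of 4 pairs. ATP citrate lyase, Acly, differed by -0.83 but read 0.12 higher on HFC at week 18.

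Elongases and desaturases differed by -1.61 to 0.10. Elovl6, which lengthens palmitate, read 1.33, 0.71, 0.16 and 2.45 on LFC and 0.27, -0.87, -0.93 and -0.27 on HFC. The difference was -1.61 (SE 0.33, limma adjusted p 0.83), and LFC exceeded HFC in each pair although the HFC week 6 level lay above the LFC week 15 level. Scd1, the main stearoyl-CoA desaturase of fat, differed by -0.85 on a probe saturated on the LFC week 18 array and by -1.22 on its dimmer probe. Elovl5, Fads1 and Fads2, which act on polyunsaturated fatty acids, differed by 0.04, 0.10 and 0.04, and Scd2 by -0.15.

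Among the regulators, Thrsp, a small nuclear protein induced by thyroid hormone and carbohydrate, read 4.12, 3.52, 3.17 and 5.77 on LFC and 2.01, 2.53, 2.30 and 4.94 on HFC. It differed by -1.20 (SE 0.29), with the widest gap, -2.11, at week 6 and gaps of -0.99, -0.87 and -0.83 later. Mlxipl, encoding ChREBP, differed by -0.85 and was lower in 4 of 4 pairs. Srebf1 was also lower in 4 of 4 pairs but by 0.20 on average, within its standard error of 0.21. The fructose transporter Slc2a5 was, like Acss2, outside the lipogenesis list and among the genes with the smallest p. Slc2a5 read -2.28, -3.07, -3.76 and -1.73 on LFC and -4.28, -4.88, -4.64 and -3.87 on HFC. Here the groups did not overlap, and the difference was -1.71 (SE 0.28, limma adjusted p 0.792), 3.27-fold lower on HFC. Groups did not overlap for 1.12% of all probes.

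**Figure D2:**
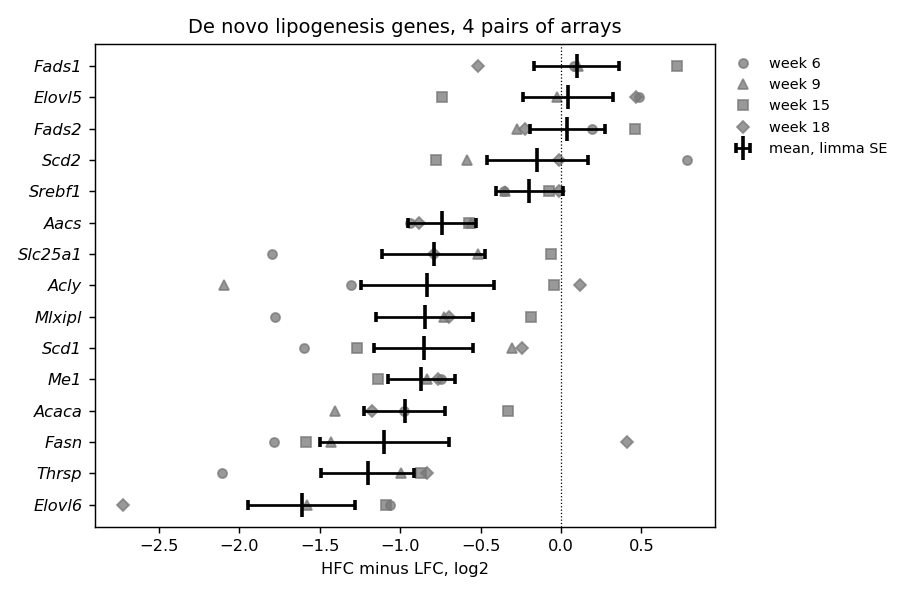
HFC minus LFC on the log2 scale (x axis) for the 15 tested genes of de novo lipogenesis (y axis), with 1 grey mark per week and the mean with limma's standard error in black. Of the genes, 10 have a mean between -1.61 and -0.74, and the remaining 5 lie between -0.20 and 0.10. The week 18 mark of Fasn, at 0.41, is from a probe saturated on both arrays.

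Of 18 adipocyte identity genes 16 had a lower mean on HFC, against 9010 of 19901 gene names, and 4 were lower in 4 of 4 pairs, against 5.25%, with a list median of -0.26. The 4 were Dgat2, the last enzyme of triglyceride synthesis, at -0.42, the activin receptor Acvr1c at -0.41, the phosphatidate phosphatase Lpin1 at -0.39 and Pparg, the master regulator of fat cells, at -0.34. The insulin-responsive glucose carrier Slc2a4 differed by -0.35 and was lower in 3 of 4 pairs. Plin4, a lipid droplet coat protein, was higher in 4 of 4 pairs, by 0.31. The 15 genes of lipolysis and the lipid droplet had a median of 0.00, with 8 higher and 7 lower. Pyruvate carboxylase, Pcx, differed by -0.68 and the glycerol phosphate dehydrogenase Gpd1 by -0.43, each lower in 4 of 4 pairs, while the 16 genes of insulin signalling and glucose use had a median of -0.03.

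Mitochondrial lists lay close to 0. The 20 genes of oxidative phosphorylation had a median of -0.09 and the 20 of fatty acid oxidation 0.04. Cpt1a, which admits long-chain fatty acids to the mitochondrion, was higher in 4 of 4 pairs by 0.34, as was the thiolase Acaa2 by 0.23. Breakdown of branched chain amino acids (17 genes) had a median of -0.11, with Dbt at 0.16 and Dld at -0.16, each of 1 sign in 4 of 4 pairs. Of the 19 cholesterol synthesis genes 15 had a lower mean, against 9010 of 19901 gene names, with a median of -0.16. Insig1, the sterol-regulated anchor of SREBP, differed by -0.62 and was lower in 4 of 4 pairs. Cidea and Cox8b, genes of thermogenic fat, differed by -0.91 and -0.48 in 4 of 4 pairs, while the 9 tested genes of their list had a median of 0.08.

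Hormones and growth factors of the fat pad were mixed. Leptin, Lep, read -2.52, -0.20, -0.59 and 2.31 on LFC and -1.99, 0.50, -0.37 and 2.0 on HFC, a difference of 0.28 (SE 0.25). Levels of Lep followed the week more than the diet, and HFC was higher in 3 of 4 pairs. Adiponectin, Adipoq, differed by 0.24 on a probe saturated on 1 array and resistin, Retn, by -0.38, each with 1 pair of the opposite sign. Nampt, the visfatin gene, read 2.22, 1.80, 1.78 and 1.85 on LFC and 1.27, 1.45, 1.06 and 1.17 on HFC, so its groups did not overlap. Vegfa, the angiogenic growth factor, differed by -0.82 (SE 0.25), and all 4 of its probes had that sign. Fgf21 differed by -0.43 in 4 of 4 pairs, and the retinol carrier Rbp4 by -0.68 in 3 of 4.

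Mest, a gene known to track fat pad expansion, was higher on HFC by a similar amount in each week. It read -0.07, 1.80, 1.27 and 2.49 on LFC and 0.86, 2.71, 2.24 and 3.32 on HFC. The pair differences of 0.92, 0.90, 0.97 and 0.83 spanned less than the weeks did within either diet, and the mean of 0.91 (SE 0.20) had a limma adjusted p of 0.946. Of the other expansion genes, Bmp3 was higher in 4 of 4 pairs by 0.61 and Sfrp5 in 3 of 4 by 0.74, both dim, and the 9 genes had a median of 0.13.

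**Figure D3:**
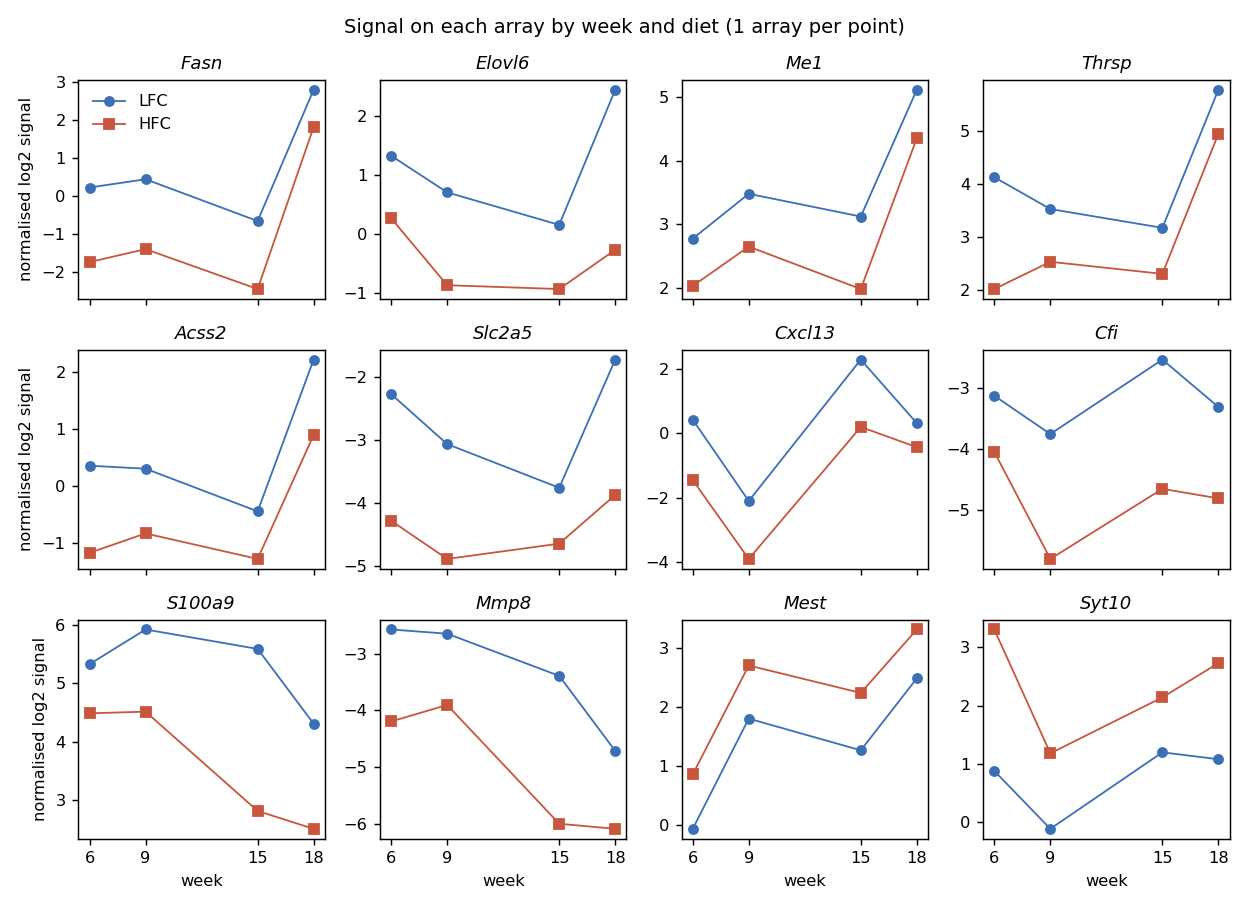
Normalised log2 signal (y axis) of 12 genes by week (x axis) on LFC (blue circles) and HFC (red squares), with 1 array per point and so no error bars, and with the dimmer probe shown for Fasn. HFC lies below LFC at all 4 weeks for the first 10 genes and above it for Mest and Syt10, and Fasn, Me1, Thrsp and Acss2 share a high week 18 on both diets.

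Immunoglobulin probes, for the chains of antibodies, nearly all had a lower mean on HFC. The array holds 103 probes named or described as immunoglobulin, of which 75 were tested, and they were grouped after results of these data were known. A lower mean on HFC was found for 74 of the 75, and 57 (76.0%) were lower in all 4 pairs, against 5.31% of all probes. At an unadjusted p under 0.05, 61 were lower, against 1.65% of all probes, and 0 passed adjustment by limma. The median difference was -1.28, and the pairs had medians of -1.76, -1.49, -0.97 and -0.95.

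These probes are not independent of each other, since many antibody transcripts share sequence. All 75 tested probes had distinct 60-base sequences, but 27 shared a run of 20 or more bases with another. A pair of heavy chain and a pair of light chain variable segments is shown because none of the 4 shares a run that long with another tested probe, and all 4 were lower in every pair. Their sequences, as the array files give them, 5′ to 3′, follow without coordinates, which the files do not pair with them.
IGHV1-47: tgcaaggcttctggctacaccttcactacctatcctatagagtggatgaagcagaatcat
IGHV2-2: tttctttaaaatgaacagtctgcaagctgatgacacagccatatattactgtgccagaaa
IGKV4-63: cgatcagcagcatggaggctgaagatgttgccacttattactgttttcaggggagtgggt
IGKV4-51: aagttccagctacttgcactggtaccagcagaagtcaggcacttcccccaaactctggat

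The IGHV1-47 probe read -1.04, -1.67, -1.10 and -2.33 on LFC and -3.11, -3.53, -2.34 and -3.54 on HFC, a difference of -1.59 (SE 0.25), and the groups just failed to overlap. The IGKV4-63 probe read -1.07, -1.92, 0.05 and -2.06 on LFC and -3.30, -3.26, -1.12 and -3.22 on HFC, a difference of -1.48 (SE 0.26). Here the HFC week 15 level lay above 2 LFC levels, and each pair kept the same direction. The IGHV2-2 and IGKV4-51 probes differed by -1.61 and -1.36. The groups did not overlap for 10 of the 75, against 1.12% of all probes, and limma's adjusted p lay between 0.792 and 1.00 for all of them. The exception was Igkv12-38, higher in all 4 pairs by 0.80, of which week 18 gave the larger part.

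The share did not rest on dim probes or on 1 week. Among the 54 probes well above background on all 8 arrays, all 54 had a lower mean and 44 (81.5%) were lower in 4 of 4 pairs, with a median of -1.28. With weeks 6, 9, 15 and 18 left out in turn, 59, 59, 59 and 65 of the 75 were lower in every remaining pair, where the shares over all probes were those given above. After normexp background correction the median was -0.70, where that of all probes was -0.14. Genes of B and plasma cells, listed apart from the antibody genes, were lower on average for all 10 tested, with a median of -0.70. The coactivator Pou2af1 (-1.24) and the plasma cell chaperone Mzb1 (-0.77) were lower in 4 of 4 pairs. Pou2af1 read 2.20, 1.44, 3.26 and 0.15 on LFC and 1.47, 0.02, 0.71 and -0.09 on HFC. Lymph node markers, which a piece of node in the pad would carry, had pair medians of -1.39, -0.82, -0.84 and 0.53 over 5 tested of 9, with a summed linear signal of 4.66 to 31.9 on LFC and 6.21 to 23.2 on HFC. Ccl21a was not on the array, and Glycam1, Fcer2a and Fcamr did not pass the filter on dim probes. The part of node tissue in the result was not tested.

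**Figure D4:**
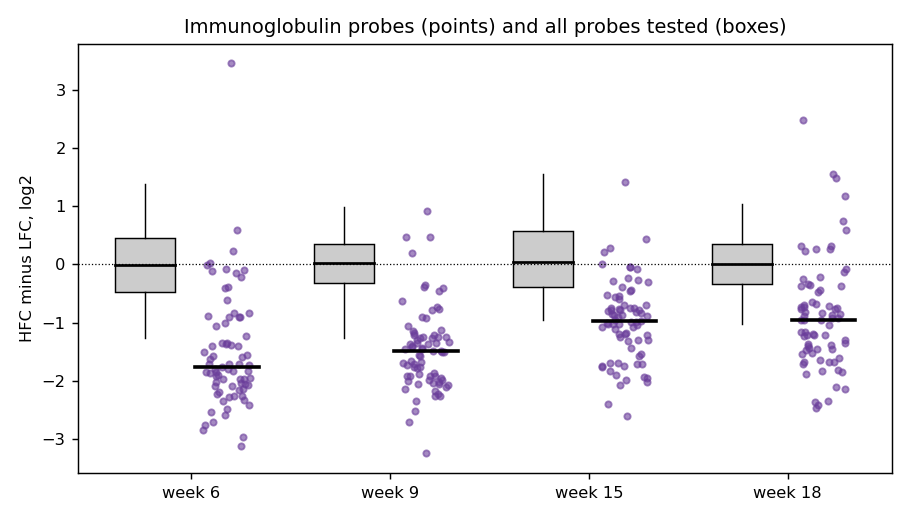
HFC minus LFC on the log2 scale (y axis) in each week's pair (x axis) for the 75 tested immunoglobulin probes (points, with their median as a black bar) and for all 27866 tested probes (grey boxes, quartiles with the 5th and 95th percentiles as whiskers). The immunoglobulin medians lie between -1.76 and -0.95 while the median of all probes stays near 0.

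The chemokine Cxcl13, which draws B cells into lymphoid clusters and is itself on the lymph node list above, was lower in the same pairs. It read 0.43, -2.10, 2.30 and 0.32 on LFC and -1.45, -3.90, 0.20 and -0.42 on HFC, a difference of -1.63 (SE 0.29, limma adjusted p 0.792). Levels of Cxcl13 varied more between weeks than between diets, so the groups overlapped although each pair had one direction. Complement factor I, Cfi, read -3.13, -3.76, -2.54 and -3.32 on LFC and -4.05, -5.81, -4.66 and -4.82 on HFC without overlap, a difference of -1.65 (SE 0.28).

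All 8 tested neutrophil genes of 9 had a lower mean on HFC, against 9010 of 19901 gene names, and 5 were lower in 4 of 4 pairs, against 5.25%. The list median was -1.34, with pair medians of -0.83, -0.88, -2.52 and -1.57. The calcium-binding alarmins S100a8 and S100a9 make up much of the neutrophil's cytosol. S100a9 read 5.33, 5.92, 5.59 and 4.31 on LFC and 4.49, 4.52, 2.82 and 2.51 on HFC, a difference of -1.70 (SE 0.34, limma adjusted p 0.80). S100a8 read 1.52, 1.75, 2.14 and 0.51 on LFC and 0.85, 0.39, -0.61 and -1.58 on HFC, a difference of -1.72 (SE 0.37). In both genes the gap was wider at weeks 15 and 18 than before, and only the LFC week 18 level overlapped with HFC.

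The secreted Retnlg differed by -1.22, the receptor Trem1 by -1.18 and the granule protein Ngp by -1.41, each lower in 4 of 4 pairs. A dimmer Trem1 probe differed by -1.01 (SE 0.55) and read 0.78 higher on HFC at week 18. Camp, Mpo and Elane, which are made in granulocyte precursors, differed by -1.39, -1.29 and -0.22 and were not of 1 sign in all pairs. Padi4, the enzyme that citrullinates histones in neutrophils, differed by -1.54 and -1.22 on its probes. The neutrophil collagenase Mmp8 read -2.57, -2.64, -3.39 and -4.71 on LFC and -4.20, -3.90, -6.00 and -6.09 on HFC, a difference of -1.72 (SE 0.29). Blood markers were also lower, with pair medians of -0.32, -0.33, -1.96 and 0.00 over 4 tested genes, and their part in the neutrophil result was not tested.

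Acute phase and inflammatory genes did not stand higher on HFC. Lcn2, which binds bacterial siderophores and is made by neutrophils and fat cells, read -0.87, 0.65, -1.10 and -2.09 on LFC and -1.68, -3.60, -2.77 and -3.14 on HFC. Its difference of -1.95 (SE 0.58) rested most on week 9, and its groups overlapped. Serum amyloid Saa1 differed by -0.76 and Orm2 by -0.33 in 4 of 4 pairs, Saa3 by -0.90 in 3 of 4, and the 12 genes had a median of -0.43. Serpina3h read 3.65, 1.12, 3.23 and 2.96 on LFC and 2.61, -0.28, 1.86 and 1.89 on HFC, a difference of -1.22 (SE 0.21). Of 21 tested cytokines and chemokines 16 had a lower mean, against 9010 of 19901 gene names, with a median of -0.22. Of these, Ccl8 (-1.22), Ccl2 (-0.60) and Ccl6 (-0.38) were lower in 4 of 4 pairs, against 5.25% of gene names. The Ccl2 probe was saturated on 2 arrays, and its week 18 pair differed by -0.0051. All 16 interferon stimulated genes had a lower mean, with a median of -0.36, but the week 18 pair had a median of 0.53.

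General and lipid-associated macrophage genes were listed apart, and the difference between the lists was not tested. The 18 general macrophage genes had a median of -0.25 and 0 of them was of 1 sign in all pairs. Their pair medians were -0.71, 0.37, -0.71 and 0.39, and Cd68 differed by -0.17. Of 14 tested genes of lipid-associated macrophages, the cells that ring dying adipocytes, 11 had a higher mean on HFC, against 10891 of 19901 gene names. The list had a median of 0.37 and pair medians of 0.13, 0.67, -0.07 and 0.92. Mmp12, the macrophage elastase, read -3.98, -4.99, -2.97 and -2.08 on LFC and -2.76, -1.50, -2.44 and -1.18 on HFC, a difference of 1.54 (SE 0.50) that was positive in 4 of 4 pairs. Gpnmb differed by 1.37 (SE 0.47), with HFC lower at week 6 alone, and osteopontin, Spp1, by 0.96 with HFC lower at week 15 alone. Itgax, the CD11c gene, differed by 0.75 and Trem2 by 0.77, both higher in 3 of 4 pairs, and the fatty acid carrier Fabp5 by 0.44 in 4 of 4. Of these 14 genes Mmp12 and Fabp5 alone were higher in 4 of 4 pairs, against 5.67% of gene names, and 0 was lower in all 4.

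Matrix, progenitor and cycling genes had positive medians of modest size. Over all gene names 10891 of 19901 had a higher mean on HFC. Of 26 extracellular matrix genes 22 had a higher mean, with a median of 0.30, but the pair medians ran from -0.45 at week 6 to 0.97 at week 15. Lumican, Lum, was higher in 4 of 4 pairs by 0.59 and Mmp14 by 0.45, Col6a3 in 3 of 4 by 0.37, and thrombospondin, Thbs1, was lower in 4 of 4 by 0.77. Of 22 cell cycle genes 18 had a higher mean, with a median of 0.36, and Top2a was higher in 4 of 4 pairs by 0.84. Under normexp correction the cell cycle median became -0.01, where the median of all probes was -0.14. Of 12 progenitor genes 9 had a higher mean, and Ebf2, a factor of committed preadipocytes, was higher by 0.61 in 4 of 4 pairs. In all 4 pairs 2 of the 26 matrix, 2 of the 22 cell cycle and 1 of the 12 progenitor genes were higher. Over all gene names that share was 5.67%.

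Of 16 tested genes of the circadian clock 9 had a higher and 7 a lower mean, with a median of 0.06. In all 4 pairs 2 of them were higher, against 5.67% of gene names, and 1 was lower, against 5.25%. Dbp, a factor whose RNA cycles strongly over the day, read 3.94, 4.11, 2.98 and 4.35 on LFC and 4.63, 5.28, 4.11 and 4.91 on HFC, a difference of 0.89 (SE 0.23). Its relative Hlf was higher by 0.54 in 4 of 4 pairs, and the repressor Cry1 was lower by 0.79 without overlap of the groups. A Cry1 probe of similar brightness differed by -0.40 (SE 0.36), overlapped and read 0.73 higher on HFC at week 6. The hour of sampling is not given in the sources used here. Of the stress lists, the glucocorticoid target Fkbp5 (-0.77), Tsc22d3 (-0.32), the endoplasmic reticulum stress gene Chac1 (-0.90), Ddit3 (-0.39) and the glutathione transferase Gsta3 (-0.77) were lower in 4 of 4 pairs, and their lists had medians of -0.29, -0.13 and -0.18 for glucocorticoid, endoplasmic reticulum and oxidative stress.

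The remaining lists had medians of -0.18 to 0.03. Antigen presentation (14 genes) had a median of -0.18 with B2m at -0.35, T and NK cells (15 genes) -0.10 with Gzmb at -0.72, and heat shock (12 genes) -0.12 with Dnaja1 at -0.42 (another of its probes had the opposite sign) and Hspe1 at 0.19. Lysosome (19 genes) had a median of 0.03 with Ctsb at -0.14, immediate early genes (22) 0.02 with Ier2 at 0.27, and endothelium (12) 0.03 with Kdr at 0.29. The members named here were each of 1 sign in 4 of 4 pairs. Over all 30 lists, 472 of 483 genes were tested and 0 passed limma's adjustment, while 27 were lower and 8 higher at an unadjusted p under 0.05, against 1.72% and 2.33% of all gene names.

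**Figure D5:**
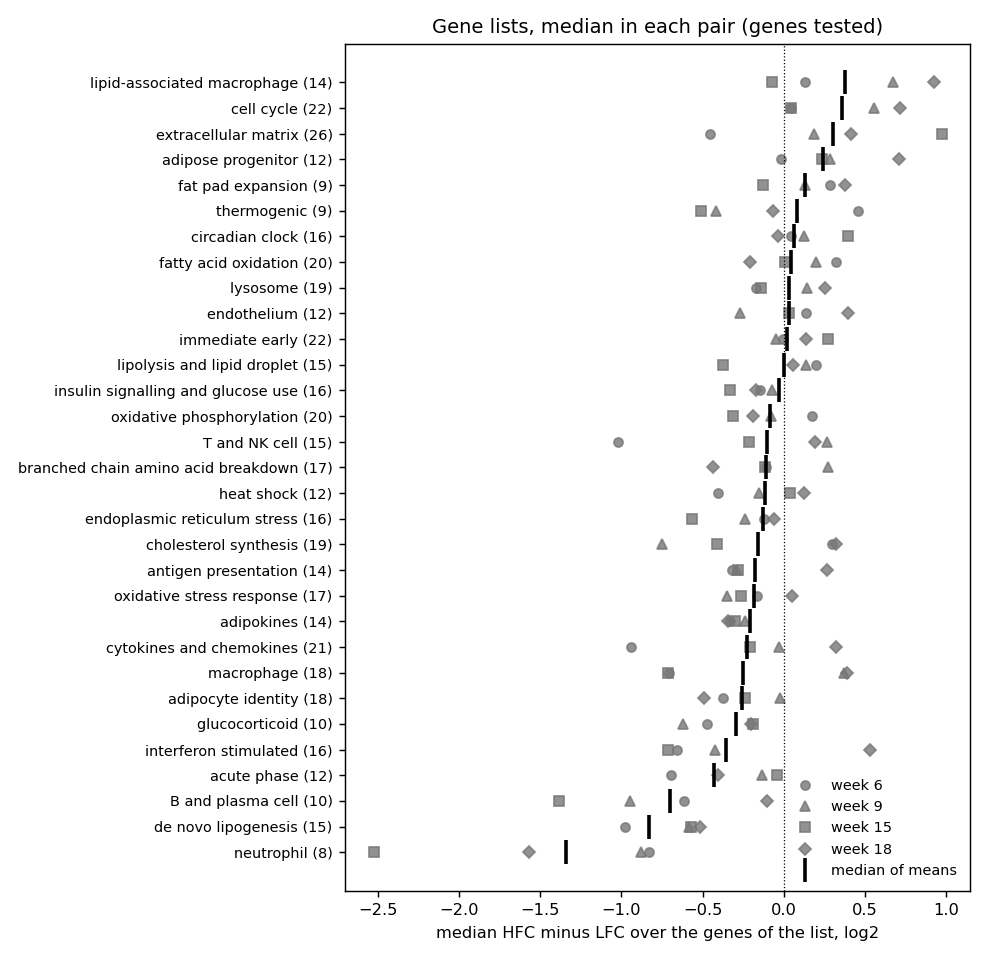
Median HFC minus LFC difference on the log2 scale (x axis) over the tested genes of the 30 lists of processes and cell types and of the neutrophil markers (y axis, with their number), with 1 grey mark per week's pair and a black bar for the median of the gene means. The neutrophil, de novo lipogenesis and B and plasma cell lists, at -1.34, -0.83 and -0.70, are the lowest of those drawn, and all 4 of their pair medians lie below 0. Of the 16 marker lists only the neutrophil list is drawn. The epididymis, blood and liver lists, not drawn, had medians of -0.81, -0.71 and -0.65.

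Higher on HFC in 4 of 4 pairs were 5.45% of all probes, and the 12 named here are those of smallest p that matched a reference gene symbol, as are the 12 lower ones. Of the higher ones 9 were not well above background on at least 1 LFC array, and 10 lost their sign under normexp correction. All 12 lower ones kept their sign there. That correction adds an offset of 50, which shrinks the differences of dim probes, and it moved the median of all probes to -0.14. A lost or kept sign of a dim probe under it therefore cannot decide whether the probe differed. Olfr340, an olfactory receptor gene, and Zscan4c, a gene of early embryos, were not well above background on any LFC array and so entered the test through the HFC arrays alone. By the processed signal HFC was at least 3.90-fold and at least 3.61-fold higher, but under normexp the differences were -0.092 and -0.067, so these bounds hold for that signal only. Extl1 (1.96), BC024139 (1.51), Kcnj13 (1.38), Ptprz1 (1.56), 4930579C12Rik (1.43), Scn2a (1.23), Olfr63 (1.32) and Zbtb7c (1.14) were among the 10 that lost their sign. Syt10, a vesicle calcium sensor, and the scavenging chemokine receptor Ackr4 kept theirs. Syt10 read 0.88, -0.11, 1.20 and 1.08 on LFC and 3.31, 1.18, 2.14 and 2.73 on HFC, a difference of 1.58 (SE 0.29, limma adjusted p 0.80), and only HFC week 9 lay within the LFC range. Ackr4 differed by 1.25 (SE 0.24). Lower probes named by the same rule and not given above were Rab44 (-1.40), the immunoglobulin-like Gm4242 (-1.46), Ighv1-77 (-1.33) and the colipase gene Clps (-1.21), which was well above background on 3 LFC arrays and 1 HFC array.

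Whether these differences belonged to the later weeks was tested against the HFC minus LFC differences of days 6, 10 and 14 and week 0, which use other arrays. The study counts its weeks from day 14 on, so day 14 and week 0 are the same time of feeding. Of 29199 probes 0 passed limma, with 2043 at an unadjusted p under 0.05 (7.0%), of which 1529 had a higher difference later. With array quality weights 1 passed limma, Olfr340, at an adjusted p of 0.0209, a probe that was not well above background on any LFC array of the later weeks. For de novo lipogenesis the median change from early to later was -0.90, against 0.08 over all probes, and 3 of 15 genes had a lower difference later at an unadjusted p under 0.05. The list's median early difference was 0.25, and 1 of the 15 genes, Acly, was lower early at an unadjusted p under 0.05. The early pairs did not have 1 sign, with medians of -0.64, 0.28, 1.31 and -0.03 at days 6, 10 and 14 and week 0. Of the 15 genes 6 had a lower mean on HFC early as well, among them Elovl6 at -0.71. In the early comparison 7.39% of the 27637 probes tested in both periods had such a p, and 0 passed limma. Thrsp had an early difference of 0.35 and a change of -1.55 (SE 0.55).

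For the immunoglobulin probes the pairs of days 6, 10 and 14 and week 0 had medians of -0.53, -1.32, 0.20 and -0.30, and the median change was -0.77 over 69 probes. Early, 53 of the 61 tested had a lower mean on HFC, against 15187 of 27637 of all probes. At an unadjusted limma p under 0.05, 10 of the 61 were lower and 0 higher early, against 1480 and 562 of all probes. Of the 8 neutrophil genes 7 had a lower mean on HFC early as well, with a median of -0.57, and the median change was -0.58. Trem1 differed by -1.93 early, more than its -1.18 later, while S100a8 differed by -0.16 early and -1.72 later. Padi4, which is not on that list, read 1.34, 2.20, 0.51 and -0.34 in the early differences and -1.62, -1.04, -1.59 and -1.92 in the later ones, without overlap. Dbp differed by -1.07 early and 0.89 later, a change of 1.96 (SE 0.33, limma adjusted p 0.535). Mest differed by 1.04 early and 0.91 later, a change of -0.14 (SE 0.55). Other genes were named by the smallest p for a change among matched genes whose 4 later pairs all had the sign of that change. They were Gm4755 (3.13), Extl1 (2.34), Pax7 (3.86) and Wnt9b (2.09) in one direction. In the other they were Fam110c (-2.93), Pik3cg (-1.46), Gstm7 (-2.0) and Eml5 (-1.60), with limma adjusted p of 0.204 and above for all of them.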

How the data were processed

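RNA was hybridised to one-colour Agilent arrays of 45220 spots, and the LFC and HFC arrays of weeks 6, 9, 15 and 18 were analysed. Per the file headers, the deposited intensity values are those of Feature Extraction, which had subtracted background and removed spatial trends on the array, and arrays were not normalised to one another. The authors' deposited table holds log2 differences, each sample against the same week's LFC sample, after GeneSpring GX, and served as an alternative. It correlated with the differences computed here at r of 0.992 to 0.997 over probes. There were 0 value columns without a sample.

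Of the processed signal the log2 was taken and the array's 75th percentile subtracted, which was 424 to 957 intensity units on the 8 arrays. Control spots and outlier spots (21 to 52 per array) were left out, and spots of a probe were averaged. Probes that stood well above background on 4 or more of the 8 arrays entered limma 3.58.1 (R 4.3.3), two-sided, with week as a block and Benjamini-Hochberg adjustment. Same-week arrays deviated together from their diet means (r of 0.381, 0.497, 0.195 and 0.678), and each pair shared a scan date. The number of arrays limits the precision.

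Genes were represented by their brightest probe. Named were the 12 smallest p per direction with 1 sign in 4 of 4 pairs among probes matched to a reference gene symbol, 1 per gene, up to 3 members of each list of 1 sign in 4 of 4 pairs, 15 chosen genes (Lep, Adipoq, Retn, Mest, Sfrp5, Fasn, Scd1, Pparg, Slc2a4, Cd68, Itgax, Trem2, Ccl2, Saa3 and Col6a3), and 5 per direction for later against early. For later against early these were the smallest p among matched genes whose 4 later pairs all had the sign of the change. Other members of the lipogenesis, neutrophil, macrophage and adipokine lists, Plin4 and the immunoglobulin segments were named after their values were seen. Some genes that the rule selects are not reported here. The comparison, the members and all lists were chosen with earlier results of these data known. Of 40628 probes 28909 (71.2%) matched a RefSeq accession on GRCm38.p6, used for names, and promoters are RefSeq's. The model was tested on simulated data. Where a probe was dim on all arrays of 1 diet the fold is a bound, the bright diet's mean against the mean over the dim diet's arrays of the higher of the probe's own signal and the lowest well-above-background signal. Tables used Python 3.11.15, pandas 2.3.3 and numpy 2.4.6, and plots matplotlib 3.10.9. Alternatives were other normalisations, background corrections, filters, variance models, tests and sets of arrays, and each week left out.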

Additional observations from a re-analysis of the deposited data

Results flagged for a closer look

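In 12 of 155 groups of 4 values, 1 value lay far from the other 3 by Dixon's criterion, and chance alone gives about 1 in 20. Among HFC minus LFC differences, week 6 stood apart for Gzmb (-2.25, others -0.25 to -0.19), Dbt (0.57, others 0.01 to 0.06), Insig1 (-1.07, others -0.51 to -0.45), Thrsp (-2.11, others -0.99 to -0.83) and the de novo lipogenesis list median (-0.97, others -0.58 to -0.52). Week 15 stood apart for B2m (-0.13, others -0.44 to -0.41) and Ctsb (-0.31, others -0.09 to -0.08). Week 18 stood apart for the brighter Fasn probe (0.41, others -1.78 to -1.43), saturated on both arrays of that week, and for the antigen presentation list median (0.26, others -0.32 to -0.28).

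Among marker levels, the epididymis list on the LFC week 9 array (1.24, others -5.76 to -4.73), the testis list on the LFC week 6 array (-5.07, others -3.51 to -3.27) and the nerve list on the HFC week 6 array (1.40, others -3.65 to -2.90) stood apart. The LFC week 6 array had a nerve level of 0.93, so both arrays of week 6 were high in nerve genes.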

How the results depend on the processing

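Under every alternative run, limma passed 0 probes for HFC against LFC, and the methods' t-test passed 1. The slide as a random block was not run, since only the week 18 pair shares a slide. The 1112 probes at an unadjusted p under 0.05 became 346 without the week as a block (the pairing), 357 under normexp, 255 with all 5 diets in 1 fit, 602 with weeks 3 and 12 added and 534 by the methods' t-test, and 791 (without week 18) to 1365 (without week 9) with a week left out. Their split into higher and lower, 651 and 461, was 474 and 631 by median scaling, 503 and 634 by quantiles, 69 and 288 under normexp, 419 and 455 with dim probes on any array left out, 488 and 545 with trended variance, 153 and 193 without the block, 187 and 68 with all diets, 181 and 353 by the methods' t-test, 555 and 617 by the paired t-test, 942 and 423 without week 9 and 565 and 703 without week 15. Normexp moved the median of all probes to -0.14, so differences under it are read against that. The later against early count of 2043 became 528 under normexp, 3094 without a filter, 1238 with dim probes on any array left out, 1301 with array weights (1 after adjustment), 443 without the block, and 1076 (without day 10) to 3405 (without day 6) with a pair left out, with 1103 without day 14 and 3264 without week 0. Its higher share of 1529 was 935 of 1878 by quantiles, 1128 of 2015 by median scaling and 252 of 528 under normexp. The de novo lipogenesis median was -0.90 to -0.61 with a week left out, and the immunoglobulin median -0.70 under normexp. Of 1617 values of the 90 named results 1589 kept their direction. Trended variance, both t-tests, the fit without the block and that with all 5 diets keep the mean difference in this balanced design, missing values aside. Their kept direction was therefore fixed in advance. Under normexp reversed Olfr340 (-0.092), Zscan4c (-0.067), Extl1 (-0.062), BC024139 (-0.27), Kcnj13 (-0.039), Ptprz1 (-0.028), 4930579C12Rik (-0.20), Scn2a (-0.059), Olfr63 (-0.055), Zbtb7c (-0.27), Dbt (-0.14), Top2a (-0.011), Tpx2 (-0.069), Bmp3 (-0.21), Sfrp5 (-0.24) and the cell cycle median (-0.0094). With weeks 3 and 12 added reversed B2m (0.19), Dbt (-0.26), Dld (0.015), Ccl2 (0.84), Ccl6 (0.087), Thbs1 (0.74), Dnaja1 (0.50), Rtp4 (0.53), Ctsb (0.14), Cd68 (0.57), Prdx1 (0.071) and the medians of adipokines (0.21), insulin signalling and glucose use (0.035), endoplasmic reticulum stress (0.071) and glucocorticoid genes (0.044). With a week left out Adipoq ranged from -0.045 to 0.42 and Cd68 from -0.42 to 0.19, both reversed without week 6. The causes were not tested. Counts of members with a week left out or another filter were added after seeing the data. Dim probes limit the higher named genes more than the lower ones, with 3 and 8 of 12 well above background on all 8 arrays.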

Other observations

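The pairs of weeks 3 and 12, left out of the comparison, had median immunoglobulin differences of -4.50 and -3.18 and median de novo lipogenesis differences of 3.12 and -4.59, each with 1 array of raised dim probes in the pair. Crisp1, an epididymal gene, read 2.39, 3.30 and 2.74 on LFC and 3.55, 2.91 and 2.06 on HFC at weeks 6, 9 and 15, and -7.89 and -7.58 at week 18, so it was present in both diets at 3 of the 4 weeks while Lcn9, another epididymal gene, was at 3.67 on LFC week 9 and at -3.60 or lower on the other 7 arrays.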
